A study of Mus musculus with 28 samples.

Results

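The 10 genes described here handle iron in cells: its uptake, storage, export and sensing. They were chosen by name for these roles, with earlier results of these data known, from the 29878 genes in each count file. They are *Trf* (transferrin), *Tfrc* (transferrin receptor), *Steap3* (an endosomal ferrireductase), *Slc11a2* (the iron transporter DMT1), *Fth1* and *Ftl1* (ferritin heavy and light chains), *Slc40a1* (ferroportin), *Cp* (ceruloplasmin), and *Aco1* and *Ireb2* (the iron regulatory proteins). All 10 symbols matched an Ensembl identifier of the files. All 10 also passed the filter on low values, which kept 14979 genes with more than 1 CPM, edgeR's measure of a gene's reads relative to the size of its library, in at least 2 libraries. For the filter that size was the total count, and for all CPM printed here it was the total after TMM scaling.

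RNA-seq was done on 28 libraries of brain tissue from mice aged 2 to 3 months that differed at *Hdc*, the gene for histidine decarboxylase, the enzyme that makes histamine. The genotypes were wild type (WT), heterozygous (Het) and knockout (KO), all on a C57Bl/6 background, and no treatment was given according to the sources used here. For WT, Het and KO, in that order, there were 2, 3 and 2 libraries of dorsal striatum, 3, 3 and 2 of ventral striatum, 3, 3 and 2 of hypothalamus, and 1, 2 and 2 of motor cortex. The knockout is constitutive, so every cell type of the dissected tissue carried it. Nothing in the labels says that libraries of a group came from separate animals, so the p-values measure the spread between libraries. Comparisons with the single WT motor cortex library have no replicate check on the WT side.

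Iron reaches most cells bound to transferrin, which the transferrin receptor carries into endosomes. There the iron is reduced by STEAP3, leaves through DMT1, and is stored in ferritin or exported through ferroportin, where ceruloplasmin oxidises it for reloading on transferrin. In the brain, oligodendrocytes make much of the transferrin mRNA and hold much of the ferritin. When iron is scarce, the iron regulatory proteins bind a hairpin, the iron-responsive element. Bound in a 5′ untranslated region (UTR) it blocks translation, and bound in a 3′ UTR it stabilises the mRNA, so that mRNA counts can register the latter kind of control but do not register the former.

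The hairpins are shown because iron regulatory proteins bind elements of this kind. Transcripts of GENCODE M21 (GRCm38) were searched on the transcript strand for an unpaired C, a stem of 5 pairs (G with T allowed) and a loop of CAGTGN. A match was found in 4 of the 10 genes. In the sequences below, given 5′ to 3′ on the strand of the mRNA with T for U, capitals mark the 6 bases of the loop.
Fth1, 5′ UTR, chr19:9982732-9982761, plus strand: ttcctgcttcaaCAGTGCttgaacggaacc
Ftl1, 5′ UTR, chr7:45459778-45459807, minus strand: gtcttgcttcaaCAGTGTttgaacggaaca
Slc40a1, 5′ UTR, chr1:45925464-45925493, minus strand: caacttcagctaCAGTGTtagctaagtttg
Tfrc, 3′ UTR, chr16:32631219-32631248, plus strand: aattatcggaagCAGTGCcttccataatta
Tfrc, 3′ UTR, chr16:32631598-32631627, plus strand: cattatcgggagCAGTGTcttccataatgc
Tfrc, 3′ UTR, chr16:32631663-32631692, plus strand: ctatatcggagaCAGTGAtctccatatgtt
Tfrc, 3′ UTR, chr16:32631710-32631739, plus strand: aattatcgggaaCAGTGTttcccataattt

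Both ferritin chains thus held 1 matched hairpin in the 5′ UTR, as did ferroportin, while the transferrin receptor held 4 matches to these letters in the 3′ UTR. Among all genes with an annotated 5′ UTR, 31 of 21200 (0.146%) held a match there, and 144 of 21193 (0.679%) held one in the 3′ UTR. The other 6 members, *Trf*, *Slc11a2*, *Cp*, *Steap3*, *Aco1* and *Ireb2*, held no match to these letters in any part of their transcripts. A match describes the sequence and was not tested as a binding site. Elements with another shape of stem, such as the one known from the 3′ UTR of an isoform of *Slc11a2*, lie outside these letters and were not searched.

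The members lie on 8 chromosomes of GRCm38. Uptake genes were *Trf* on the minus strand at chr9:103204001-103230444, *Tfrc* on the plus strand at chr16:32608920-32632794, *Steap3* on the minus strand at chr1:120190757-120272705 and *Slc11a2* on the minus strand at chr15:100387898-100425072. Storage genes were *Fth1* on the plus strand at chr19:9980598-9985098 and *Ftl1* on the minus strand at chr7:45457944-45459884. Export genes were *Slc40a1* on the minus strand at chr1:45908068-45926523 and *Cp* on the plus strand at chr3:19957054-20009145. The sensors *Aco1* and *Ireb2* lie on the plus strand at chr4:40143081-40198338 and chr9:54863789-54912530.

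The genes differed in how well single reads could be assigned to them. The reads had 50 bases, and a read was counted only if it aligned uniquely and fell on 1 gene alone. Of the 50-base words of the *Trf* transcripts, 40.6% occurred in no other annotated gene, because *Trf* shares 2108 exon bases on its own strand with *Gm20425*, a gene that received 1 count over all 28 libraries. For *Ftl1* the share was 41.6%, with most shared words in its processed copy *Ftl1-ps1*, which also received 1 count. The share was 98.4% for *Fth1*, 95.7% for *Slc11a2* and 99.4% for *Cp*. Of the remaining 5 genes *Ireb2* shared 3 of 9566 words and the others none. Levels of *Trf* and *Ftl1* are therefore understated relative to the other members by an amount that these counts do not give, and copies outside the annotated transcripts were not searched. *Cp* also shares 108 exon bases with *Hps3* and *Slc11a2* 402 with *Gm5475* on the opposite strand, and the strand setting of the counting is not given in the sources used here.

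*Fth1* had by far the highest level in the reads counted. Per kilobase of exon its median level over 28 libraries was 275 CPM, against 7.37 CPM for *Trf*, 4.91 CPM for *Slc11a2*, 4.68 CPM for *Tfrc*, 3.9 CPM for *Aco1* and 2.75 CPM for *Ireb2*. *Ftl1* had 2.42 CPM per kilobase, followed by *Steap3* at 1.07 CPM, *Cp* at 0.573 CPM and *Slc40a1* at 0.45 CPM. Counted per 1000 unique 50-base words instead, *Trf* had 17.5 CPM and *Ftl1* 5.47 CPM, which moved *Ftl1* from place 7 to place 3 among the 10 genes. The counted level of the heavy chain thus exceeded that of the light chain on both scales. Neither scale holds the *Ftl1* reads lost to copies outside the annotated transcripts, so the true gap between the chains is not given.

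**Figure D1:**
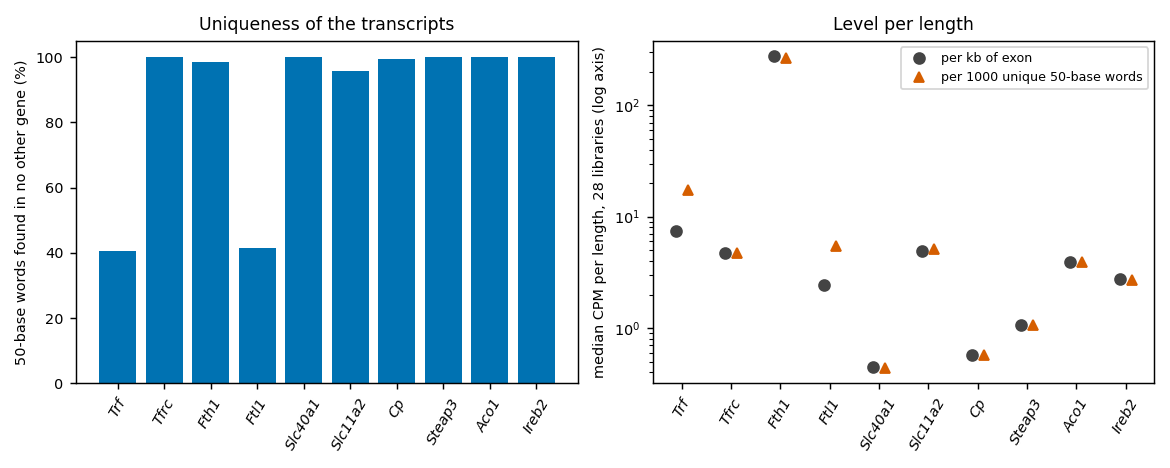
Left, the percent of 50-base words of each gene's annotated transcripts found in no other annotated gene. Right, the median level over 28 libraries in CPM per kilobase of exon (circles) and in CPM per 1000 unique 50-base words (triangles), on a log axis. *Trf* and *Ftl1* stand at 40.6% and 41.6% unique words and are the genes whose levels depend most on the scale.

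Libraries held between 3536802 and 5150280 counts on genes. *Hdc* itself had 31 to 40 counts per KO library and 0 to 3 per WT library in the dorsal striatum, and in the hypothalamus 54 to 66 counts in KO and 79 to 111 in WT libraries. These counts cover the whole gene and do not check the deleted part, so KO refers to the label. Regions carried their markers, such as *Drd1* at 184 to 292 CPM in the dorsal striatum and at most 8.17 CPM in hypothalamus and motor cortex, and *Pmch* at 72.4 to 115 CPM in the hypothalamus. Some libraries stood apart. KO dorsal striatum library 8 held 10311 counts of *Ttr*, a choroid plexus gene that had 0 and 14 counts in the WT libraries of that region, and KO dorsal striatum library 7 held 178 CPM of *Slc17a7*, a gene of cortical excitatory neurons, which had 1040 to 1185 CPM in motor cortex and at most 56.4 CPM in the other dorsal striatum libraries. KO hypothalamus library 8 held 198 CPM of *Slc17a7*.

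Most calls among the iron genes were between regions. Those comparisons had 5 to 8 libraries per side and the genotype comparisons 1 to 3, so the counts of calls are not on equal terms. Over 6 pairs of regions and 10 genes, 20 of 60 tests were past the threshold, an adjusted p under 0.05 by edgeR's likelihood ratio test on the mean of the 3 genotypes. They fell on 7 of the 10 genes. Calls between regions were common among all genes tested. *Cp* and *Ireb2* were called between dorsal and ventral striatum, 2 of 10 members against 29% of all genes. Between dorsal striatum and hypothalamus 5 of 10 members were called against 56.1%, and between dorsal striatum and motor cortex 4 of 10 against 43.4%. Between ventral striatum and hypothalamus 4 of 10 were called against 43.6%, between ventral striatum and motor cortex 2 of 10 against 43.6%, and between hypothalamus and motor cortex 3 of 10 against 48.2%. The members' share was thus below that of all genes in each of the 6 pairs, and their median log2 fold change was between -0.16 and 0.04, against medians of all genes between -0.045 and 0.046.

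**Figure D2:**
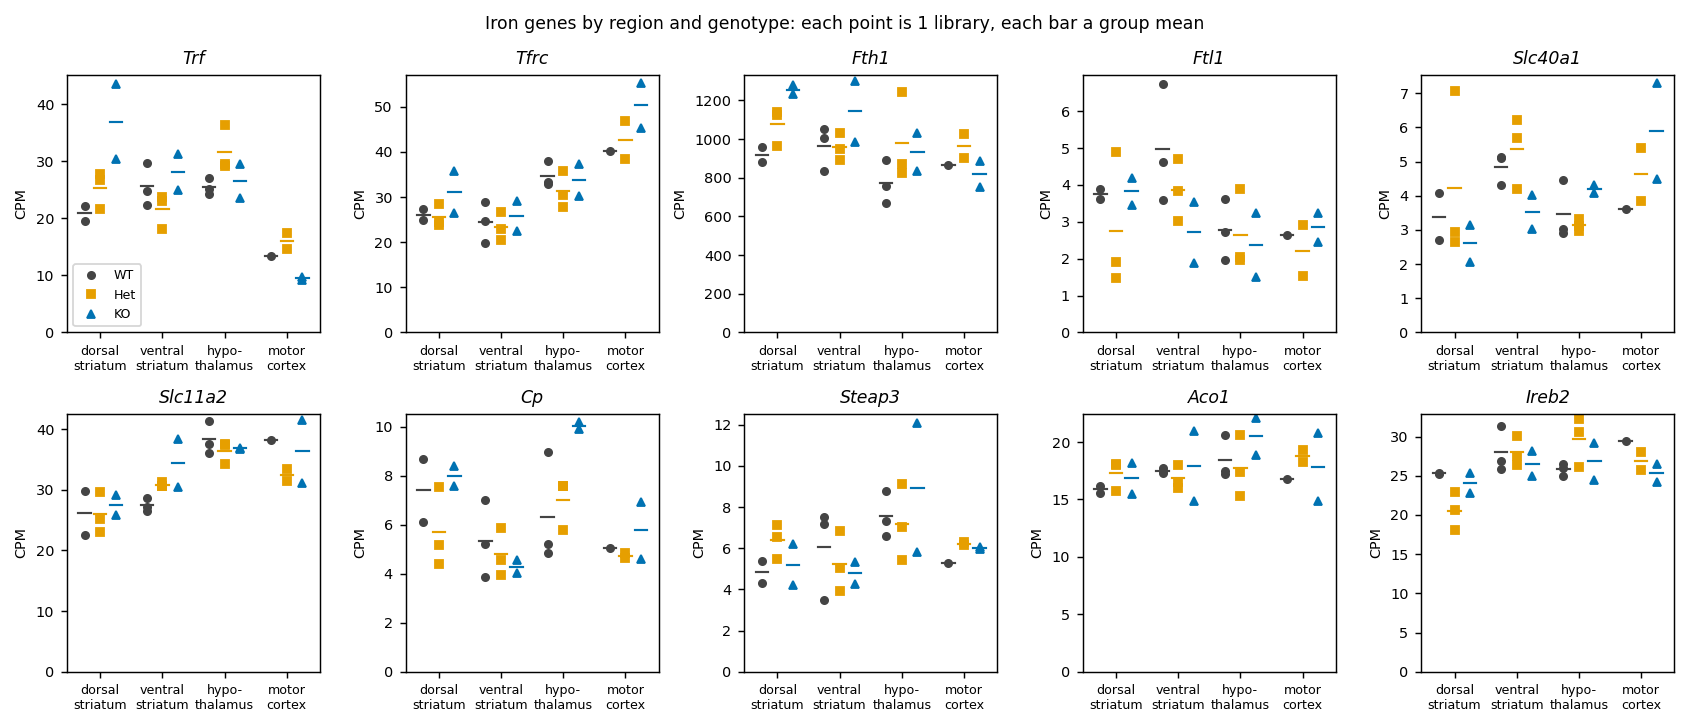
CPM of each of the 10 iron genes in each of 28 libraries, by region (x axis) and genotype (symbol), with a bar at each group mean and every y axis starting at 0. *Trf* is lowest in the 5 motor cortex libraries (9.18 to 17.4 CPM), where *Tfrc* is highest (38.4 to 55.4 CPM).

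*Trf*, the iron carrier, was lowest in the motor cortex. Its 5 motor cortex libraries had 9.18 to 17.4 CPM (median 13.4), against 19.5 to 43.5 CPM (median 26.7) in 7 dorsal striatum, 18.2 to 31.2 CPM (median 24.3) in 8 ventral striatum and 23.6 to 36.4 CPM (median 28.1) in 8 hypothalamus libraries. No motor cortex library reached the lowest library of another region. The share of all genes that separate regions in this way was not counted, here or for the genes below. Against the motor cortex the level was 2.12-fold higher in the dorsal striatum (log2 1.08, SE 0.14, adjusted p = 1.33e-13 by edgeR), 1.97-fold higher in the ventral striatum (log2 0.98, SE 0.14, adjusted p = 1.46e-11) and 2.19-fold higher in the hypothalamus (log2 1.13, SE 0.13, adjusted p = 6.61e-16). The other 3 regions did not differ from each other past the threshold, with adjusted p between 0.226 and 0.735 by edgeR.

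The mature oligodendrocyte genes moved with this difference. The mean log2 CPM of 18 such genes, among them *Mog* and *Mag*, was 4.60 to 5.22 in the motor cortex libraries and 5.29 to 6.39 in all others. In these bulk samples, fewer cells of a type and less RNA per cell cannot be told apart. With that mean as a covariate the *Trf* difference was 0.74 for the dorsal striatum (adjusted p = 0.00533 by edgeR) and 0.75 for the hypothalamus (adjusted p = 0.00861), while that of the ventral striatum was 0.57 and no longer past the threshold (adjusted p = 0.0925).

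*Tfrc*, the receptor that takes up loaded transferrin, was highest in the motor cortex, where *Trf* was lowest. Its motor cortex libraries had 38.4 to 55.4 CPM (median 45.4), above all other libraries, followed by 27.7 to 38 CPM (median 33.1) in the hypothalamus, 23.8 to 35.7 CPM (median 26.5) in the dorsal striatum and 19.9 to 29.1 CPM (median 23.8) in the ventral striatum. The motor cortex exceeded the hypothalamus by 0.41 on the log2 scale (SE 0.11, adjusted p = 6.36e-04 by edgeR), the dorsal striatum by 0.68 (SE 0.12, adjusted p = 3.31e-08) and the ventral striatum by 0.85 (SE 0.11, adjusted p = 9.99e-13). The hypothalamus in turn exceeded the dorsal striatum by 0.27 (SE 0.10, adjusted p = 0.0162) and the ventral striatum by 0.44 (SE 0.10, adjusted p = 5.41e-05). The call between hypothalamus and dorsal striatum was lost without KO dorsal striatum library 8, KO hypothalamus library 8 or WT dorsal striatum library 2. Dorsal and ventral striatum did not differ past the threshold (0.17, adjusted p = 0.258). Library size alone moved the median of all genes for hypothalamus over motor cortex from 0.05 to 0.28, and *Tfrc* in that pair from -0.41 to -0.17 (adjusted p = 0.214 by edgeR), still below the median. Whether the 4 hairpins matched in the 3′ UTR of *Tfrc* bear on these levels was not tested.

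*Slc11a2*, which moves iron out of the endosome, had its lowest median in the dorsal striatum. Its 7 dorsal striatum libraries had 22.5 to 29.9 CPM (median 25.8), and the 8 hypothalamus libraries had 34.2 to 41.4 CPM (median 37.2), with no overlap. Motor cortex libraries lay at 31.1 to 41.6 CPM and ventral striatum libraries at 26.5 to 38.4 CPM. The dorsal striatum was lower than the hypothalamus (log2 -0.48, SE 0.09, adjusted p = 2.07e-07 by edgeR) and the motor cortex (log2 -0.41, SE 0.10, adjusted p = 2.88e-04), and the ventral striatum was lower than the hypothalamus (log2 -0.27, SE 0.08, adjusted p = 0.00316). Dorsal and ventral striatum overlapped and were not past the threshold (log2 -0.21, SE 0.09, adjusted p = 0.08 by edgeR). *Steap3*, which reduces endosomal iron, was higher in the hypothalamus (5.45 to 12.1 CPM, median 7.19) than in the dorsal striatum (4.2 to 7.11 CPM, median 5.5, log2 0.54, SE 0.19, adjusted p = 0.00914 by edgeR) and the ventral striatum (3.46 to 7.54 CPM, median 5.17, log2 0.55, SE 0.18, adjusted p = 0.00715), with overlapping libraries in both cases. KO hypothalamus library 7, at 12.1 CPM, decided both *Steap3* calls, and without it the differences were 0.33 and 0.34.

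*Fth1*, the ferritin chain that oxidises and stores iron, differed little between regions. Libraries had 879 to 1278 CPM (median 1123) in the dorsal striatum, 836 to 1302 CPM (median 997) in the ventral striatum, 668 to 1241 CPM (median 853) in the hypothalamus and 754 to 1026 CPM (median 888) in the motor cortex, all overlapping. The dorsal striatum exceeded the hypothalamus by 0.27 (SE 0.10, adjusted p = 0.00967 by edgeR) and the motor cortex by 0.29 (SE 0.11, adjusted p = 0.0271). The first call was lost without KO hypothalamus library 7. The second was lost without any of 4 libraries (Het motor cortex 6, KO dorsal striatum 8, KO motor cortex 8, WT dorsal striatum 1). Neither direction held in all fits. The first was -0.09 with library size alone, a scaling that moved the median of all genes in that pair from -0.045 to -0.41, and the second was -0.16 with the oligodendrocyte covariate. *Ftl1*, the light chain, had 6 to 25 counts per library and between 1.47 and 6.73 CPM, and none of its 6 pairs was past the threshold (smallest adjusted p = 0.0888 by edgeR).

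Of the export genes, *Cp*, a ferroxidase, had 4.84 to 10.2 CPM (median 7.59) in the hypothalamus, 4.41 to 8.69 CPM (median 7.54) in the dorsal striatum, 4.59 to 6.94 CPM (median 4.83) in the motor cortex and 3.85 to 7 CPM (median 4.55) in the ventral striatum, with overlap between all regions. The ventral striatum was lower than the hypothalamus (log2 -0.67, SE 0.17, adjusted p = 4.60e-04 by edgeR) and the dorsal striatum was higher than the ventral (log2 0.53, SE 0.19, adjusted p = 0.0186), as was the hypothalamus than the motor cortex (log2 0.56, SE 0.20, adjusted p = 0.0139). The call between hypothalamus and motor cortex was lost without KO motor cortex library 8. *Slc40a1*, the iron exporter, had 9 to 30 counts per library and 2.07 to 7.29 CPM, and none of its pairs was past the threshold (smallest adjusted p = 0.123 by edgeR).

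The sensors varied least. *Aco1* had 14.9 to 22.1 CPM over all 28 libraries, a ratio of 1.49 between the highest and the lowest library, and no pair of regions was called (smallest adjusted p = 0.138 by edgeR). *Ireb2* had 18.1 to 32.2 CPM. Its 7 dorsal striatum libraries had 18.1 to 25.4 CPM (median 22.9), lower than the ventral striatum (25 to 31.4 CPM, log2 -0.25, SE 0.09, adjusted p = 0.0203 by edgeR) and the hypothalamus (24.5 to 32.2 CPM, log2 -0.24, SE 0.09, adjusted p = 0.0113). DESeq2 gave adjusted p-values of 0.0797 and 0.0679 for these differences. Leaving out single libraries also ended calls between dorsal and ventral striatum. The *Cp* call was lost without any of 4 libraries (Het dorsal striatum 4, WT dorsal striatum 1, KO ventral striatum 7, WT ventral striatum 3), and the *Ireb2* call without any of 4 (Het dorsal striatum 4, KO dorsal striatum 8, KO ventral striatum 7, WT ventral striatum 1). Between dorsal striatum and hypothalamus the *Ireb2* call was lost without KO hypothalamus library 7.

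**Figure D3:**
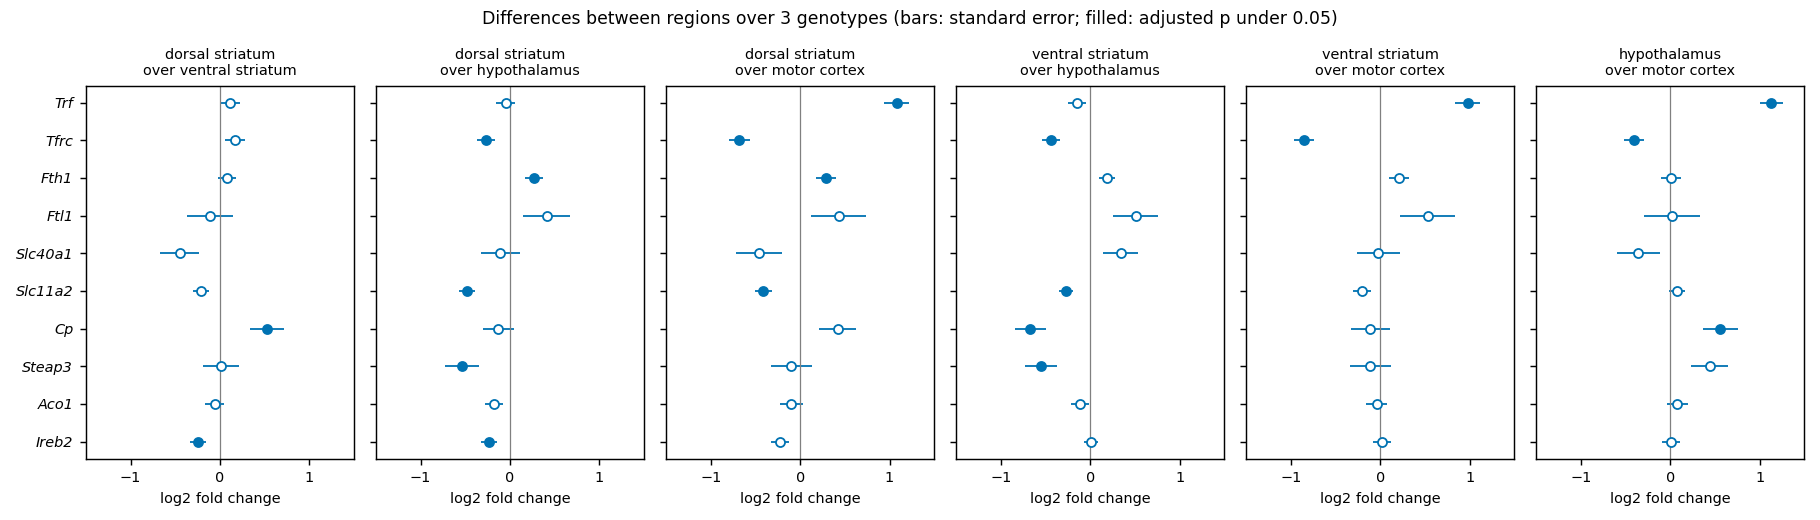
Log2 fold change of each iron gene between pairs of regions over the 3 genotypes, with standard errors from edgeR, where filled points have an adjusted p under 0.05. The 3 comparisons with motor cortex hold the largest differences, with *Trf* between 0.98 and 1.13 higher elsewhere and *Tfrc* between 0.41 and 0.85 higher in motor cortex.

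The genotype comparisons asked whether loss of *Hdc* altered these genes within a region. Across KO against WT, Het against WT and KO against Het in 4 regions, 1 of 120 tests was past the threshold, and 9 had an unadjusted p under 0.05. The called gene was *Trf* in the dorsal striatum of KO mice, 1 of 10 members against 0.387% of all genes tested there (58 of 14979). The quasi-likelihood test and DESeq2 called 0 of the 120.

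*Trf* had 19.5 and 22.2 CPM in the WT libraries of the dorsal striatum, 21.6, 26.7 and 27.8 CPM in the Het libraries, and 30.4 and 43.5 CPM in the KO libraries. Both KO libraries were above all WT libraries, as for 18.8% of all genes, and above all Het libraries, as for 9.77%. The share above both was not counted. Het and WT overlapped. The mean was 36.9 ± 9.31 CPM in KO and 20.8 ± 1.93 CPM in WT (SD, n = 2 each), a 1.76-fold difference (log2 0.81, SE 0.21, adjusted p = 0.0326 by edgeR's likelihood ratio test). An exact permutation test on the 4 libraries alone gave a two-sided p of 0.333, the smallest that 2 against 2 can give. KO exceeded Het by 0.54 (SE 0.18, adjusted p = 0.215 by edgeR) and Het exceeded WT by 0.27 (SE 0.20, adjusted p = 0.795).

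The *Trf* call depended on the fit. The adjusted p was 0.115 with edgeR's quasi-likelihood test, 0.0844 with DESeq2 and 0.0716 when only the dorsal striatum libraries were fitted. The call was not tested by the fit with the replicate number as a block, as given in the closing section. It was lost without KO library 8 (log2 0.54, adjusted p = 0.783 by edgeR), WT library 1 (0.73, adjusted p = 0.378) or WT library 2 (0.92, adjusted p = 0.138), and without KO library 7 the difference was 1.05.

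Other genes moved with *Trf* in the dorsal striatum. All 18 oligodendrocyte genes were higher on average in KO than in WT, with summed levels of 3223 to 4152 CPM in KO and 2136 to 2387 CPM in WT libraries and 0 of 18 genes at 0. All 18 were also higher on average in Het than in WT, with sums of 3043 to 3257 CPM that reached the level of KO library 7, while *Trf* in Het overlapped WT. With the mean of these genes as a covariate the *Trf* difference was 0.48 (SE 0.26, adjusted p = 1.000 by edgeR). The log2 level of *Trf* less that mean was -1.16 and -0.78 in WT and -1.03 and -0.82 in KO libraries, which overlapped.

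All 12 choroid plexus genes were also higher on average in KO, with sums of 9.43 CPM in KO library 7 and 2923 CPM in KO library 8 against 4.19 to 14.3 CPM in WT, where 5 of 12 genes were at 0 in every library. With their mean as a covariate the difference was 0.49 (SE 0.24, adjusted p = 0.882 by edgeR). The 12 endothelial genes summed to 386 to 412 CPM in KO and 352 to 376 CPM in WT. The part of choroid plexus, cortical or endothelial RNA in the *Trf* difference was not tested beyond these values.

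**Figure D4:**
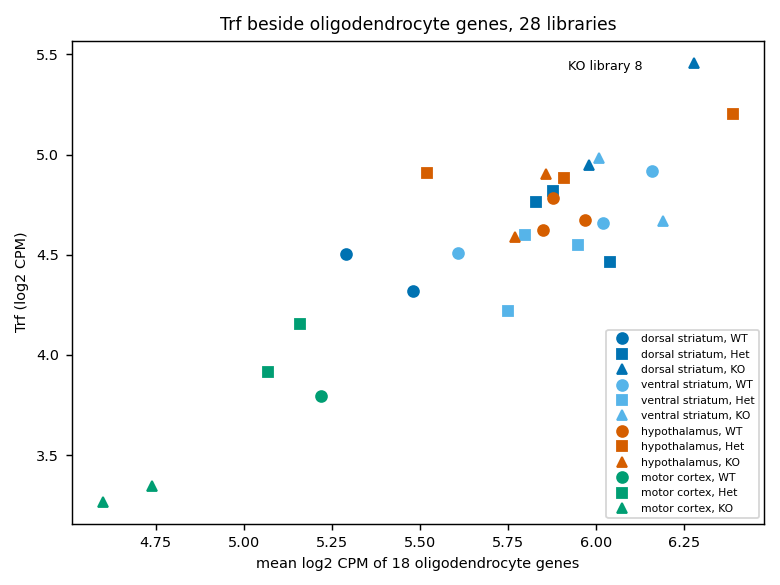
Log2 CPM of *Trf* against the mean log2 CPM of 18 mature oligodendrocyte genes in 28 libraries, coloured by region and with symbols by genotype. The 5 motor cortex libraries lie lowest on both axes, and KO dorsal striatum library 8 (5.46 on the *Trf* axis) lies highest on the *Trf* axis.

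Across all 28 libraries, the log2 level of *Trf* and the oligodendrocyte mean had a Pearson correlation of 0.89, and 0.45 for deviations from the 12 group means. The libraries fall into regions, so these values are a description. For *Fth1* the same values were 0.49 and 0.59, and for *Tfrc* they were -0.54 and 0.45. With the choroid plexus mean *Trf* had 0.56 and 0.53. Its deviations had -0.07 with the endothelial, 0.28 with the astrocyte, 0.32 with the microglia and -0.05 with the red blood cell mean. Within the dorsal striatum libraries *Trf* had 0.74 with the oligodendrocyte, 0.86 with the choroid plexus and 0.71 with the astrocyte mean. With the remaining lists it had 0.20 to 0.57 there.

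The other 9 members were not called in the dorsal striatum of KO mice. *Fth1* came closest, with 961 and 879 CPM in WT, 1123, 1141 and 962 CPM in Het and 1234 and 1278 CPM in KO libraries. KO and WT did not overlap, and the difference was 0.45 (SE 0.18, adjusted p = 0.432 by edgeR). *Trf* and *Fth1* were the 2 members whose KO libraries all lay above the WT libraries, which held for 18.8% of all genes. With library size alone, where the median of all genes moved from -0.004 to 0.28, *Fth1* was past the threshold (0.74, adjusted p = 0.00437 by edgeR).

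Among the other uptake genes *Tfrc* differed by 0.26 (SE 0.20, adjusted p = 0.807 by edgeR), *Slc11a2* by 0.05 (SE 0.18, adjusted p = 0.978) and *Steap3* by 0.13 (SE 0.40, adjusted p = 0.970). The light chain *Ftl1* differed by 0.02 (SE 0.48, adjusted p = 0.998). The exporter *Slc40a1* differed by -0.42 (SE 0.46, adjusted p = 0.882) and *Cp* by 0.13 (SE 0.33, adjusted p = 0.964). The sensors *Aco1* and *Ireb2* differed by 0.09 (SE 0.21, adjusted p = 0.961) and -0.07 (SE 0.17, adjusted p = 0.964). Of the 10 members 8 had a log2 fold change above 0, and their median was 0.11, against -0.004 for all genes. Of the genes with a matched hairpin, *Fth1*, *Ftl1* and *Slc40a1* held it in the 5′ UTR, where mRNA counts do not register its control. Only *Tfrc*, at 0.26, had its matches in the 3′ UTR.

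**Figure D5:**
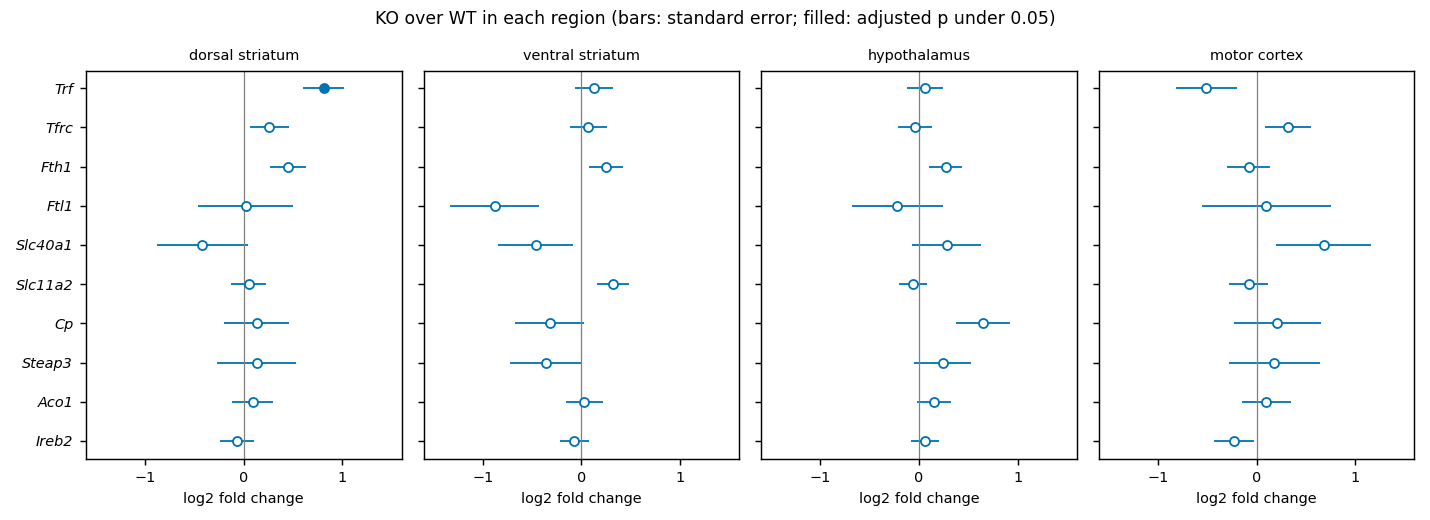
Log2 fold change of each iron gene in KO over WT in 4 regions, with standard errors from edgeR, where filled points have an adjusted p under 0.05. *Trf* in the dorsal striatum, at 0.81, is the only filled point, and its value in the motor cortex is -0.51.

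In the other regions 0 of 10 members were called between KO and WT, where 0.0801% of all genes were called in the ventral striatum, 0.167% in the hypothalamus and 0.0334% in the motor cortex. *Slc11a2* had the smallest p in the ventral striatum, with 26.5, 27.2 and 28.7 CPM in WT, 31.3, 30.6 and 30.6 CPM in Het and 30.5 and 38.4 CPM in KO libraries (KO against WT log2 0.32, SE 0.16, adjusted p = 0.889 by edgeR). Its Het and KO libraries all lay above the WT libraries, as for 6.02% of all genes in Het and 8.51% in KO. *Ftl1* and *Slc40a1* lay below WT in both KO libraries there, as did 8.69% of all genes, at log2 -0.88 (SE 0.45, adjusted p = 0.932) and -0.46 (SE 0.38, adjusted p = 0.945).

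In the hypothalamus *Cp* had the smallest p. It had 4.84, 8.95 and 5.19 CPM in WT, 7.59, 5.77 and 7.59 CPM in Het and 10.2 and 9.88 CPM in KO libraries. The KO libraries lay above all others, and KO differed from WT by 0.65 (SE 0.27, adjusted p = 0.640 by edgeR). Leaving out single libraries gave values from 0.50 to 0.99. Groups of KO libraries above those of WT were found for 11.3% of all genes in that region, and above those of Het for 10%.

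In the motor cortex *Trf* had 13.4 CPM in the WT library, 17.4 and 14.7 CPM in the Het libraries and 9.18 and 9.72 CPM in the KO libraries. KO differed from WT by -0.51 (SE 0.31, adjusted p = 1.000 by edgeR) and from Het by -0.76 (SE 0.25, adjusted p = 0.723). In that region 0 of 18 oligodendrocyte genes were higher on average in KO than in the WT library, with summed levels of 1111 to 1331 CPM in KO and 1883 CPM in WT. *Tfrc* had 40.3 CPM in WT, 38.4 and 46.8 CPM in Het and 45.4 and 55.4 CPM in KO libraries.

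Of Het against WT, 0 of 10 members were called in any region, where 0.0868% of all genes were called in the dorsal striatum, 0.0534% in the ventral striatum, 0.0935% in the hypothalamus and 0.0134% in the motor cortex. The smallest p in the dorsal striatum was that of *Ireb2*, with 25.2 and 25.4 CPM in WT and 18.1, 20.6 and 22.9 CPM in Het libraries (log2 -0.31, SE 0.16, adjusted p = 0.628 by edgeR). In the ventral striatum it was that of *Trf* (log2 -0.26, SE 0.17, adjusted p = 1.000). In the hypothalamus *Fth1* had 757, 892 and 668 CPM in WT and 870, 822 and 1241 CPM in Het libraries (log2 0.34, SE 0.15, adjusted p = 0.804), and the groups overlapped. In the motor cortex it was that of *Slc11a2* (log2 -0.24, SE 0.20, adjusted p = 1.000). Of KO against Het, 0 of 10 members were called in any region, where 0.454%, 0.0467%, 0.234% and 0.00668% of all genes were called in dorsal striatum, ventral striatum, hypothalamus and motor cortex.

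The difference of the KO against WT change between regions was tested in the same model, and 0 of 60 tests over 10 members and 6 pairs were called. Of these, 4 had an unadjusted p under 0.05, and the quasi-likelihood test and DESeq2 also called 0. Among all genes 0.00668% were called between dorsal and ventral striatum, 0.154% between dorsal striatum and hypothalamus, 0.127% between dorsal striatum and motor cortex, 0.1% between ventral striatum and hypothalamus, 0% between ventral striatum and motor cortex and 0.0134% between hypothalamus and motor cortex. For *Trf* the change in the dorsal striatum exceeded that in the ventral striatum by 0.68 (SE 0.28, adjusted p = 1.000 by edgeR), that in the hypothalamus by 0.75 (SE 0.27, adjusted p = 0.402) and that in the motor cortex by 1.32 (SE 0.38, adjusted p = 0.147). A difference between regions in the *Trf* response was therefore not shown.

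Other genes of iron metabolism were tested in the same fits. Of 70 genes on 4 lists (other iron transport, iron storage and sensing, heme, and iron-sulphur cluster assembly), 62 passed the filter and 0 were called in any of the 12 genotype comparisons by edgeR. In the dorsal striatum their median log2 fold change of KO over WT was 0.05. The smallest adjusted p among them there was that of *Steap2*, not past the threshold (log2 1.55, SE 0.45, adjusted p = 0.0951 by edgeR). Between regions 14 to 28 of the 62 were called per pair, or 22.6% to 45.2%, against 29% to 56.1% of all genes, and the share was below that of all genes in each of the 6 pairs.

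Some of these genes had called differences between regions. *Cd163*, the macrophage receptor for hemoglobin bound to haptoglobin, had a mean of 16.1 CPM in dorsal and 4.59 CPM in ventral striatum, 1.89 CPM in hypothalamus and 1.22 CPM in motor cortex (dorsal striatum over hypothalamus log2 3.14, SE 0.24, adjusted p = 2.57e-39 by edgeR). *Bmp6*, a signal for hepcidin, had 8.66, 3.18, 4.52 and 1.72 CPM in the same order of regions. Other genes had their highest means in the hypothalamus or motor cortex. *Cybrd1*, a ferric reductase, had 4.82 CPM in the hypothalamus and 0.862 to 1.45 CPM elsewhere (over motor cortex log2 2.40, SE 0.37, adjusted p = 9.48e-10). *Steap2*, a metalloreductase, had 27.1 CPM in the hypothalamus, 20.8 CPM in the ventral striatum, 14.6 CPM in the motor cortex and 11 CPM in the dorsal striatum (dorsal striatum over hypothalamus log2 -1.39, SE 0.23, adjusted p = 3.67e-09). *Tfr2*, the second transferrin receptor, had 2.61 and 2.95 CPM in hypothalamus and motor cortex and 1.46 and 1.02 CPM in dorsal and ventral striatum.

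Genes whose pattern was most like that of a member were found by the Pearson correlation of log2 CPM over 28 libraries, which includes differences between the 4 regions. For *Trf* they included *Apod* (0.93) and *Spg20* (0.91). For *Tfrc* they were *Kif3c*, *Wnt9a* and *Golga7b* (each 0.90), for *Slc11a2* *Castor2*, *Dync1i1* and *Tuba1b* (each 0.88), and for *Fth1* *Slc44a1* (0.78), *Zfp664* (0.74) and *Rbm7* (0.74). For the other 6 members the highest values were between 0.66 and 0.76. For deviations from the 12 group means, the correlations with the named genes were 0.38 and 0.39 for *Trf*, 0.44 to 0.66 for *Tfrc*, 0.59 to 0.72 for *Slc11a2* and 0.52 to 0.74 for *Fth1*, and those of the leading genes of the other 6 members were 0.55 to 0.69.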

How the data were processed

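Per the labels and the study's methods, the authors removed adapters with Trimmomatic 0.32 and rRNA reads with Bowtie2 2.2.3, aligned single-end reads of 50 bases to GRCm38 with STAR 2.3.1z8, and deposited raw counts per gene from HTSeq 0.6.1p1 in union mode (Ensembl 75). Of the reads tallied, 44.8% to 54.2% fell on genes and 25.5% to 30.2% were not uniquely aligned. GENCODE M21 named 28842 of the 29878 genes. Tests used R 4.3.3 and edgeR 4.0.16 (TMM, glmFit and glmLRT, as the study's methods state for the test) in 1 model of 12 groups over 28 libraries. Genes above 1 CPM in at least 2 libraries were kept, and p-values were Benjamini-Hochberg adjusted over 14979 genes, with a threshold of 0.05. CPM used TMM library sizes, and log2 CPM a prior count of 2. The tests were run on a single set of simulated counts for KO against WT in the dorsal striatum. There 19 of the 191 genes called by the likelihood ratio test were unchanged, and 9 of the 174 called by the quasi-likelihood test. Both held more unchanged genes than the threshold allows, the likelihood ratio test more so. The 21 pairs of libraries within groups differed by a chi-square per degree of freedom of 1.78 to 13.29, so none was a duplicate within sampling noise. Alternatives were edgeR's quasi-likelihood test, DESeq2 1.42.0, other scalings and filters, fits within a region, a replicate block, covariates and leaving out each library. All members, the gene with the smallest p in each KO against WT and Het against WT comparison, and the other iron genes with the 2 largest called changes each way per region pair were eligible to be named. The members and lists were chosen with earlier results of these data known. Oligodendrocyte and choroid plexus genes were used as sums, as covariates and in correlations, and endothelial genes as sums and in correlations. Astrocyte, microglia and red blood cell genes were used in correlations, and single genes as markers of regions. Not every gene among those most correlated with a member is reported here.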

Additional observations from a re-analysis of the deposited data

How the results depend on the processing

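The count of 1 member called in the dorsal striatum of KO mice fell to 0 with the quasi-likelihood test, DESeq2, fits within the region, the choroid plexus covariate and the oligodendrocyte covariate, and rose to 2 with library size alone. The cause was not tested. Of the other counts, DESeq2 gave 0 members between dorsal and ventral striatum and 3 between dorsal striatum and hypothalamus, library size alone gave 7 between ventral striatum and hypothalamus, 7 between hypothalamus and motor cortex and 1 each for the difference of the KO against WT change between dorsal striatum and hypothalamus or motor cortex, and the oligodendrocyte covariate gave 1 between ventral striatum and motor cortex. Library size alone moved the median of all genes, for example to 0.28 for KO against WT in the dorsal striatum and to -0.41 between dorsal striatum and hypothalamus. In the alternative that follows, the pairs with motor cortex used the mean of Het and KO alone, not of the 3 genotypes. An alternative chosen after seeing the data, without the WT motor cortex library and KO dorsal striatum library 8, gave 1 member between dorsal and ventral striatum and counts within 1.5 times the main ones in the other 5 pairs.

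Leaving out 1 library gave 0 to 1 members called for KO against WT and for KO against Het in the dorsal striatum, 1 to 3 between dorsal and ventral striatum, 2 to 5 between dorsal striatum and hypothalamus (the lowest without KO hypothalamus library 7), 2 to 4 between ventral striatum and motor cortex, and 0 to 1 for the difference of the KO against WT change between dorsal striatum and motor cortex. For KO over WT in the dorsal striatum the log2 fold change was 0.54 to 1.05 for *Trf*, -0.12 to 0.16 for *Ftl1*, -0.13 to 0.28 for *Slc11a2*, -0.12 to 0.38 for *Cp*, -0.19 to 0.37 for *Steap3*, -0.04 to 0.19 for *Aco1* and -0.15 to 0.00 for *Ireb2*. The WT motor cortex library could not be left out of the genotype comparisons, since its group has no other.

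Directions reversed for members that were not called for KO over WT in the dorsal striatum. With the oligodendrocyte covariate *Tfrc* was -0.04, *Ftl1* -0.14, *Slc11a2* -0.11, *Cp* -0.06, *Aco1* -0.12 and *Ireb2* 0.00, which is at 0 to the digits given. With the choroid plexus covariate *Ftl1* was -0.20 and *Slc11a2* -0.08, and with library size alone *Ireb2* was 0.21, still below the median of all genes under that scaling (0.28). Of called differences, *Fth1* was -0.09 between dorsal striatum and hypothalamus with library size alone, still above the median of all genes there (-0.41), and -0.16 between dorsal striatum and motor cortex with the oligodendrocyte covariate.

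Libraries with the same replicate number did not deviate together from their group means. Over 34 pairs of libraries with the same number, the deviations correlated between -0.080 and 0.086. Such correlations cannot decide whether a number names a mouse, since in groups of 2 libraries the deviations mirror each other. The labels do not state it either. A fit with the replicate number as a block gave 0 members for KO against WT in the dorsal striatum. *Trf* was 0.79 there, with an adjusted p of 0.0678 by edgeR. Since no number occurs in more than a single genotype, that contrast set KO at replicate 8 against WT at replicate 1. It did not compare the group means, so it cannot decide whether the *Trf* call holds.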

Other observations

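Other iron genes with called differences between regions included *Hfe2* (hemojuvelin, a co-receptor for BMP signals), at 1.43 CPM in motor cortex, 0.782 CPM in hypothalamus, 0.105 CPM in dorsal striatum and 0.0316 CPM in ventral striatum, levels at which a library holds few counts. *Tmprss6*, a protease that cleaves hemojuvelin, had 0.736 CPM in the dorsal striatum and 0.103 CPM in the motor cortex, and *Scara5*, a ferritin receptor, had 0.431 CPM in the hypothalamus and 0.0966 CPM in the motor cortex. *Flvcr1*, a heme exporter, had 14.1 CPM in the hypothalamus against 6.59 CPM in the dorsal striatum (dorsal striatum over hypothalamus log2 -1.10, SE 0.13, adjusted p = 1.58e-16 by edgeR's likelihood ratio test). *Exoc6*, an exocyst subunit, ran the other way, with 11.6 CPM in the hypothalamus and 24.9 CPM in the dorsal striatum (dorsal striatum over hypothalamus log2 1.09, SE 0.13, adjusted p = 1.01e-15). *Fdx1l* (a mitochondrial ferredoxin used in iron-sulphur cluster assembly) had 10.4 CPM in the motor cortex and 6.95 CPM in the hypothalamus (hypothalamus over motor cortex log2 -0.58, SE 0.18, adjusted p = 0.0027). *Slc25a37* (mitoferrin, which carries iron into mitochondria) had 44.5 CPM in the dorsal striatum and 21.9 to 29.3 CPM in the other regions, and was chosen after its values were seen. Beside ferritin heavy and light chains, *Ftmt* (mitochondrial ferritin) had 5 counts over all 28 libraries.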
